A study of Drosophila melanogaster with 3 samples.

Results

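Smox-GFP binding was described at 8 genes of the c-Jun N-terminal kinase (JNK) pathway, namely egr, slpr, hep, Mkk4, bsk, Jra, kay and puc. The genes were chosen by name as the core of the pathway and were all found in the gene annotation, where they are 8 of 13945 protein-coding genes on the chromosomes used. Each gene was taken with its body and 5 kb either side, which is called its window below, and every summit of a binding region in that window was counted. The data came from whole white prepupae, the stage at which the puparium forms, with males and females pooled. The animals carried a stably inserted transgene for Smox with GFP at its C terminus, and chromatin was precipitated with an antibody against GFP. There were 3 biological replicates of 1 group, all from the same transgenic line, so no condition was contrasted with another. The promoter that drives the transgene is not given in the sources used here. Chromatin of the entire animal was used, so occupancy in few cells and weak occupancy in many cells cannot be told apart.

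JNK signalling is a kinase cascade. The tumour necrosis factor ligand egr acts through its receptors on JNK kinase kinases such as slpr, which phosphorylate the JNK kinases hep and Mkk4, and these phosphorylate the JNK bsk. JNK acts on the transcription factors Jra (Jun) and kay (Fos), which together form AP-1, and AP-1 raises the transcription of puc, a phosphatase that turns JNK off again. In Drosophila the pathway is known for closing the embryo dorsally and for fusing the imaginal discs of the thorax around puparium formation. Smox is the SMAD protein of Activin-type TGF-beta signalling.

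The strongest binding regions of the cascade lay beside Mkk4, upstream of kay and inside puc. Regions were ranked within each list by the score of the authors' peak caller, with 1 as the strongest, and the thresholded list held the 6622 strongest of the 30000 regions called on the pooled replicates. Sequences reaching 75 bp either side of the strongest thresholded summit are shown for hep, Mkk4, kay and puc, to let the reader see which known elements are under each summit. They are on the plus strand of the Release 6 genome, in lower case, with matches to the AP-1 site (TGANTCA) or the SMAD box (GTCT, or AGAC on the other strand) in capitals.
Mkk4, rank 74, chr3R:8650886-8651036: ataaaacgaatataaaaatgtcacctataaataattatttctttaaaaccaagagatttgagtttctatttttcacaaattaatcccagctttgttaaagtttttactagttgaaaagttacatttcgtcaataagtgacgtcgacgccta
kay, rank 121, chr3R:29763274-29763424: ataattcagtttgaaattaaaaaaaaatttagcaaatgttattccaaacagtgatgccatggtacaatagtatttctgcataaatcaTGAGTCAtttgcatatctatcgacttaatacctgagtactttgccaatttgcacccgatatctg
puc, rank 390, chr3R:8113986-8114136: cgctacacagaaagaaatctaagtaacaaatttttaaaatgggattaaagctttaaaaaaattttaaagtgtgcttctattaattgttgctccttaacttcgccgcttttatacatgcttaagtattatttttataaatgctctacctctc
hep, rank 1535, chrX:13094253-13094403: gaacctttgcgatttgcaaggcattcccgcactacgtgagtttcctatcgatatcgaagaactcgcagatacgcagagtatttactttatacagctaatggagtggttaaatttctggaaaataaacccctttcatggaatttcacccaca
The kay sequence held an AP-1 site, TGAGTCA, whose centre lay 15 bp from the summit. The other 3 sequences held none, and none of the 4 held a SMAD box. Over the 8 windows, the sequence with the most SMAD boxes lay in an intron of kay, and it was picked for display after its count was known.
kay, rank 4194, chr3R:29786734-29786884: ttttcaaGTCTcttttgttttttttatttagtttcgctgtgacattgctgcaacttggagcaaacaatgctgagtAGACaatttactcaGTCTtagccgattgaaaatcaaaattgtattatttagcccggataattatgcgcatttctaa
It held 3 SMAD boxes, with 1 of them 2 bp from the summit.

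The 8 windows held 25 thresholded summits, and they were unevenly spread over the pathway. The phosphatase gene puc had 10 summits and the Fos gene kay had 8, so these genes held 18 of the 25. The ligand gene egr, the kinase gene Mkk4 and the Jun gene Jra had 2 summits each, and the kinase gene hep had 1. The genes slpr and bsk had none. Of the 25 summits, 13 lay in the body of a member, 8 upstream and 4 downstream. All bodies with a summit belonged to egr, kay or puc.

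**Figure D1:**
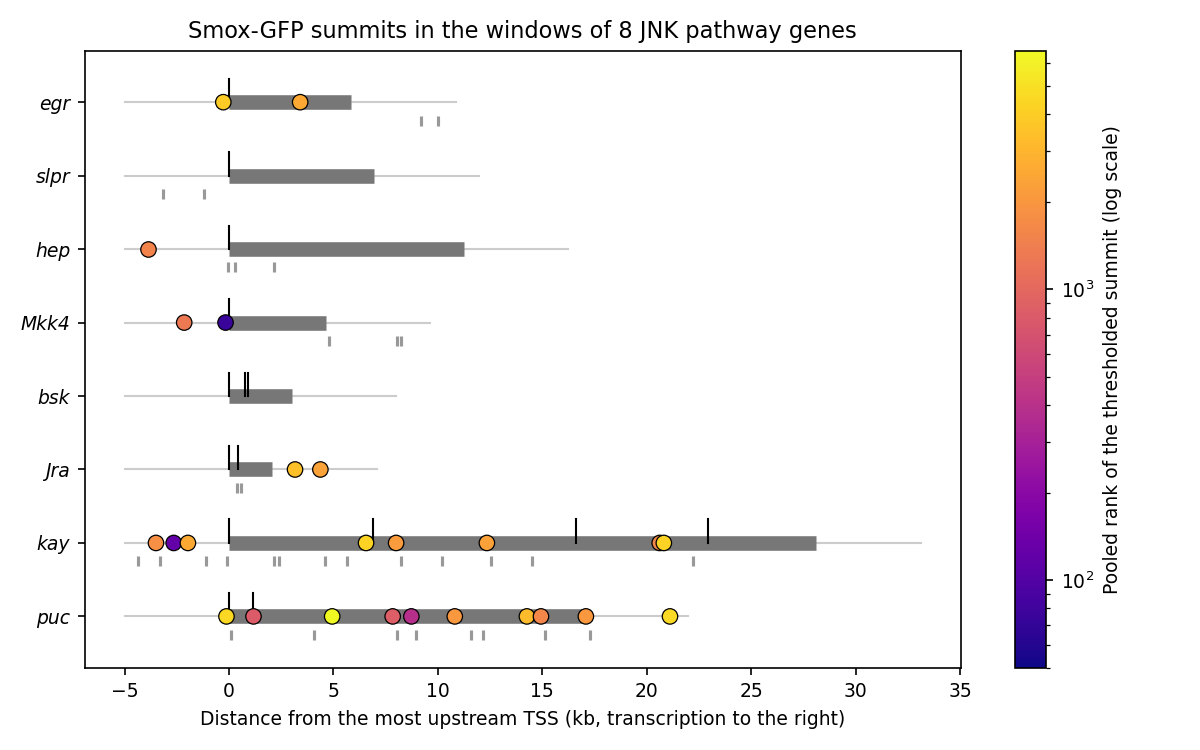
Map of the 8 windows, with distance from the most upstream transcription start site (TSS) in kb on the x axis and transcription running to the right. Grey bars are gene bodies, thin lines the 5 kb flanks, black ticks annotated TSSs, circles thresholded summits coloured by pooled rank (log scale) and small grey ticks the 33 pooled regions below the threshold. The circles crowd at kay (8) and puc (10), while slpr and bsk have none.

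A thresholded summit in the window was found for 6 of the 8 members (75%), while 42.9% of all protein-coding genes had one. Values per replicate were taken from the first 6622 regions of each replicate list, and the same 6 members were found in replicates 1, 2 and 3, against 45.9%, 45.1% and 47.7% of all genes. For 4 members (50%), egr, Mkk4, kay and puc, a summit lay within 1 kb of a TSS, as it did for 18.9% of all genes. In the replicates this count was 4, 5 and 4, because replicate 2 had regions at the TSSs of Jra and hep and none at those of kay. A summit inside the gene body was found for 3 members, egr, kay and puc, while 12.5% of all genes had one.

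A window can hold a summit that lies beside another gene. When each summit was given to the nearest protein-coding TSS, 13 of the 25 went to a member and 12 to another gene. Summits remained for 3 members, egr, kay and puc, while 22.2% of all genes had a summit nearest to them. Longer genes have larger windows and hold more summits, so the counts were also set beside genes of like length. Of members under 5 kb, 2 of 3 had a summit (Mkk4 and Jra, not bsk), while 36.5% of all such genes did. Of members of 5 to 15 kb, 2 of 3 had one (egr and hep, not slpr), while 54.8% of such genes did. Both members of 15 kb or longer, kay and puc, had one, as did 73.1% of genes of that length.

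Summits were denser in the windows than over genes in general, above all at puc and kay. There were 15.7 summits per 100 kb over the 158816 bp of the 8 windows, compared with 5.29 over the windows of all protein-coding genes and 4.93 over whole chromosomes. Each of the 3 replicate lists also gave 25 summits in these windows, so the density was 15.7 ± 0.0 per 100 kb (SD, n = 3). The equal totals hid differences by gene. In replicates 1, 2 and 3 there were 1, 2 and 1 summits at hep and 3, 3 and 2 at Jra. There were 8, 7 and 9 at kay, and 9 in each at puc, which had 10 in the thresholded list. Without puc and kay, the other 6 windows held 7 summits in 93734 bp, or 7.47 per 100 kb.

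**Figure D2:**
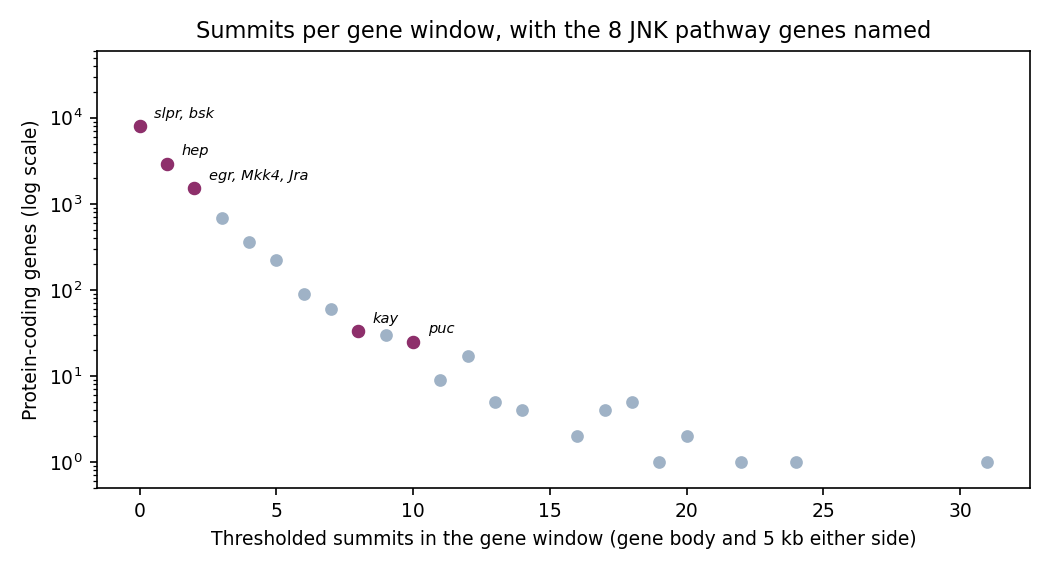
Number of protein-coding genes (y axis, log scale) by the number of thresholded summits in their window (x axis), with 1 point for each number that occurs. The coloured points, with names beside them, are the numbers found at the 8 JNK pathway genes. Of these genes, kay with 8 and puc with 10 have the most, while the x axis runs to 31 summits.

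At the top of the cascade, egr encodes the ligand and lies at chr2R:10078366-10084210 on the plus strand, with 1 annotated TSS. Its promoter summit, 272 bp upstream of the TSS, ranked 3917 in the pooled list and 4461, 4253 and 5166 in replicates 1, 2 and 3. The other summit lay in the gene body, 3407 bp past the TSS, and ranked 2583 in the pooled list and 2380, 2659 and 3354 in the replicates. This stretch of egr also holds small nucleolar RNA genes, and the summit lay 448 bp upstream of snoRNA:Or-ACA6. The replicates thus placed both egr summits among their 6622 strongest regions, and at the body summit their positions differed by 87 bp, the widest spread over the 8 windows.

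The JNK kinase kinase gene slpr, at chrX:8170229-8177185 on the minus strand, had no thresholded summit. The strongest pooled region of its window ranked 7266, below the threshold, and ranked 8857, 6737 and 10143 in the replicates. It lay 1218 bp upstream of the slpr TSS and 146 bp upstream of sdt, which encodes a cell polarity scaffold and is transcribed away from slpr. No replicate placed a region of the slpr window among its 6622 strongest.

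The JNK kinase gene hep lies at chrX:13079205-13090434 on the minus strand. Its only thresholded summit was 3894 bp upstream of its TSS and 29 bp past the start of CG2200, with lic, a kinase gene of the p38 pathway, in between. That summit ranked 1535 in the pooled list and 1454, 1811 and 1802 in the replicates. At hep itself there were 3 regions below the threshold. The one 44 bp upstream of the TSS ranked 11189, the one 273 bp past it ranked 8167 and the one 2156 bp past it ranked 7837. The region 273 bp past the TSS ranked 17149, 6620 and 24612 in replicates 1, 2 and 3. Among the strongest regions it was thus seen in replicate 2 alone.

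The second JNK kinase gene, Mkk4, lies at chr3R:8646172-8650796 on the minus strand and had the strongest summit of all 8 windows. This summit ranked 74 in the pooled list and 67, 91 and 72 in the replicates (76.7 ± 12.7, SD, n = 3). Of all protein-coding genes, 214 (1.53%) had a window region at least as strong. The summit lay 165 bp upstream of the Mkk4 TSS and 123 bp upstream of SLIRP2, whose TSS is 288 bp away on the other strand, so it sat between both starts. The second summit ranked 1285 in the pooled list and 1148, 1641 and 1360 in the replicates. It was 2144 bp upstream of Mkk4 and 24 bp upstream of Dhod, which encodes an enzyme of pyrimidine synthesis. Neither summit lay in the Mkk4 body.

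The JNK gene bsk, at chr2L:10247502-10250501 on the minus strand, has 3 annotated TSSs. Its window of 13000 bp held no region of the pooled list, which has one in 69.4% of all protein-coding gene windows, and none of any replicate list, although each of these 4 lists has 30000 regions. Such an empty window was found for 12.8% of all protein-coding genes and for 15.5% of those under 5 kb. The kinase on which the pathway converges was therefore the only member with no called region of any strength.

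The AP-1 subunit genes differed from each other. The Jun gene Jra, at chr2R:10096480-10098556 on the plus strand, had both thresholded summits downstream of its body, next to 14-3-3zeta, which encodes a phosphoserine-binding adaptor. These summits lay 36 and 182 bp upstream of starts of 14-3-3zeta and 2713 and 3926 bp from the nearest Jra TSS. They ranked 3440 and 2355 in the pooled list. The first ranked 3853, 2735 and 3911 in the replicates and the second 2089, 2372 and 3126. At the promoter of Jra the pooled list had a region below the threshold, 85 bp upstream of the second TSS, which ranked 11108. Replicate 2 alone had a region there among its strongest, 50 bp past that TSS, with rank 4941.

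The Fos gene kay, at chr3R:29765995-29794113 on the plus strand, has 4 annotated TSSs, and 7 of its 8 summits were nearer to one of them than to the start of any other protein-coding gene. The cluster upstream of the first TSS had 3 summits, at 3495, 2646 and 1966 bp, with pooled ranks of 1817, 121 and 2558. The middle one is the summit with the AP-1 site shown above. It ranked 117, 149 and 99 in the replicates (122 ± 25.3, SD, n = 3), and 318 protein-coding genes (2.28%) had a window region at least as strong. The summits on either side of it ranked 2022, 2045 and 1616 (the farther from the gene) and 4031, 2475 and 1801 (the nearer). All 3 summits of the cluster were intergenic, and the farthest was slightly nearer, at 3460 bp, to the start of the non-coding gene lncRNA:CR44953.

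Inside kay there were 5 more summits. The one 337 bp upstream of the second TSS ranked 4209 in the pooled list and 4753, 7204 and 4187 in the replicates, so it fell outside the strongest 6622 in replicate 2. A summit 1102 bp past that TSS ranked 2128 in the pooled list and 1727, 2739 and 2722 in the replicates. It was slightly nearer, at 1057 bp, to the start of lncRNA:CR46110, a non-coding gene inside kay. The summit nearest to another protein-coding gene lay 2113 bp past the start of fig, a phosphatase gene within kay, with a pooled rank of 2312. In an intron, 2326 and 2127 bp upstream of the fourth TSS, neighbouring summits ranked 1590 and 4194 in the pooled list. The first ranked 1480, 1518 and 2656 in the replicates. The second is the sequence with 3 SMAD boxes. It ranked 2458 and 3584 in replicates 1 and 2. Replicate 3 had no summit within 150 bp of it, but a region among its strongest 6622 overlapped the peak. The intervals of these neighbouring summits also overlapped each other.

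The phosphatase gene puc, the usual reporter of JNK activity in Drosophila, lies at chr3R:8105332-8122294 on the plus strand with 2 annotated TSSs. Both starts had a summit. At the first, puc-RA, the summit lay 121 bp upstream and ranked 4568 in the pooled list and 4104, 4460 and 8086 in the replicates. At the second, puc-RB, it lay 17 bp past the start and ranked 817 in the pooled list and 1026, 447 and 1562 in the replicates. Replicate 2 thus had its strongest puc region at the puc-RB start.

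The body of puc held 7 summits, that at puc-RB among them. The strongest in the pooled list, with rank 390, lay 7573 bp past puc-RB and 58 bp upstream of lncRNA:CR44331, a non-coding gene inside puc. It ranked 354, 496 and 353 in the replicates. A neighbour in an exon of that non-coding gene ranked 859 in the pooled list and 903, 847 and 1016 in the replicates, the smallest spread relative to its mean of the 24 summits found in every replicate list (a CV of 9.34%). The weakest summit of the 8 windows also lay here, in an intron 3783 bp past puc-RB. It ranked 6559 in the pooled list and 8425, 7918 and 6593 in the replicates, so it was covered by the strongest regions of replicate 3 alone. The other body summits ranked 2032, 3210 and 1585 and lay in introns. Past the end of the gene, a summit 311 bp upstream of CG7878 ranked 2059, and one 83 bp upstream of CG9667 ranked 4684.

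**Figure D3:**
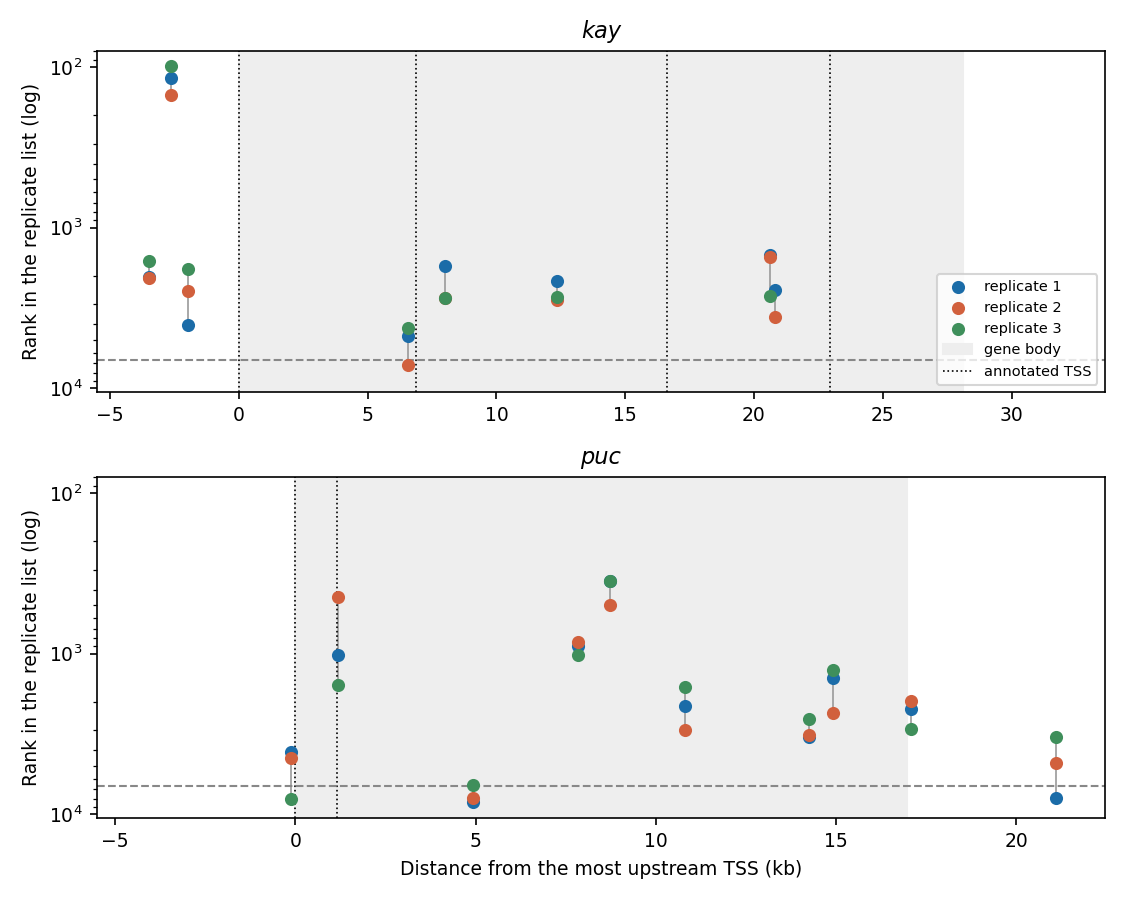
Ranks in the 3 replicate lists (y axis, log scale, strongest at the top) of each thresholded summit of kay and puc by distance from the most upstream TSS in kb (x axis). The shaded span is the gene body, dotted lines are annotated TSSs and the dashed line is rank 6622. The kay summit 2646 bp upstream stands above all others of the gene in every replicate, while in puc the summit 8729 bp from the first TSS leads in replicates 1 and 3 and the one at the second TSS leads in replicate 2.

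Few genes had as many summits as puc and kay. In the window of 140 protein-coding genes (1.00%) there were 8 or more, as at kay, and in that of 77 (0.552%) 10 or more, as at puc. Among genes of 15 kb or longer these shares were 9.79% and 5.59%. Per length of window, puc had 3.71 summits per 10 kb and 133 genes (0.954%) had at least that density, while kay had 2.1 per 10 kb, which 867 genes (6.22%) reached.

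The order of the members by their strongest region was Mkk4, kay, puc, hep, Jra, egr and slpr, and it was the same in all 3 replicates. The mean rank was 385 ± 54.0 for puc, 1689 ± 204 for hep, 2529 ± 536 for Jra, 2798 ± 502 for egr and 8579 ± 1720 for slpr (SD, n = 3 each). The replicate ranks of Jra, 2089 to 3126, overlapped those of egr, 2380 to 3354, although Jra ranked ahead of egr within each replicate, by 291, 287 and 228 places. Between the other neighbours the ranges did not overlap. With the pooled list ranked by −log10 q-value instead, Mkk4, kay and puc tied at rank 1, followed by egr at 4674, hep at 4716, Jra at 5179 and slpr at 7270, so the order within the first 3 and that of hep, Jra and egr rest on the score. The median rank of the 25 summits was 2128, compared with 3321.5 for all thresholded summits on these chromosomes. Of the 25, 5 were among the strongest 1000 of the 6622 thresholded regions. Among the strongest 1655, which bound the top 25% of the thresholded list, there were 9.

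**Figure D4:**
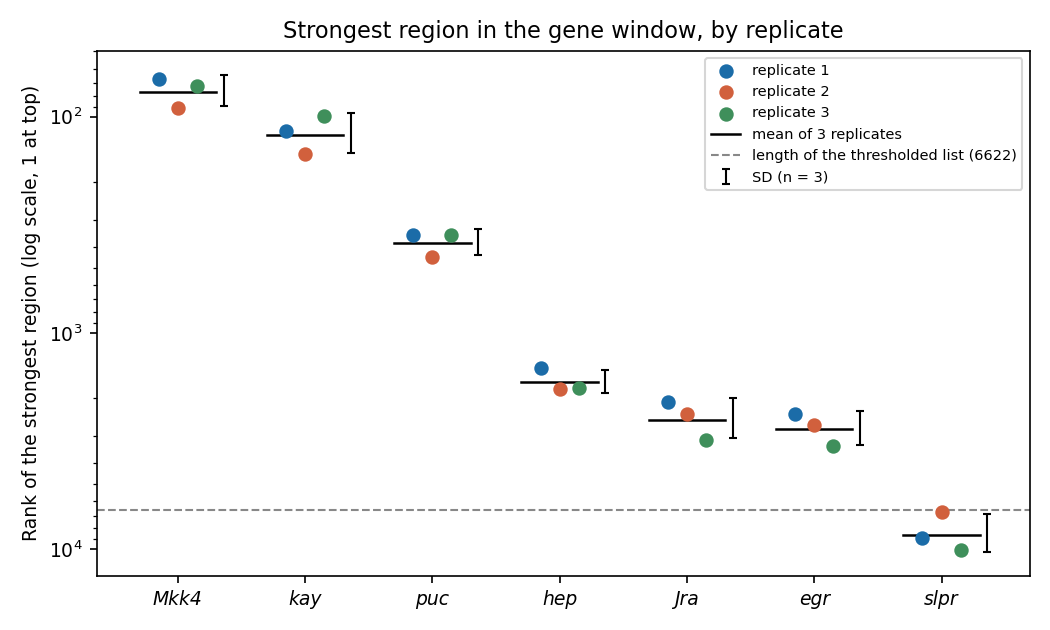
Rank of the strongest region in each window (y axis, log scale, strongest at the top) in replicates 1, 2 and 3. Points are replicates, horizontal lines their means, bars beside them the SD and the dashed line rank 6622. The points of Jra (2089 to 3126) and egr (2380 to 3354) overlap, those of other neighbours do not, and bsk is not drawn because it had no region in any list.

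The replicates agreed on most of these regions. The strongest 6622 regions of all 3 replicates covered 21 of the 25 summits (84%), while 4737 of all 6600 thresholded peaks on these chromosomes (71.8%) were covered. Of the other 4, 3 were covered by 2 replicates and 1 by a single replicate. Because the thresholded list was made from the replicates, this coverage describes their agreement and is no independent check. In the full lists, 24 of the 25 had a summit within 150 bp in every replicate, and the positions spread over 8 to 87 bp with a median of 32 bp. The ranks of a summit had a median CV of 20.6% over replicates.

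By position, 13 of the 25 summits (52%) were within 500 bp of an annotated TSS of any gene, 8 (32%) in introns, 3 (12%) in intergenic sequence and 1 (4%) in another exon. Over all thresholded summits these shares were 34.1%, 43.5%, 19.8% and 1.14%. All 7 summits of egr, hep, Mkk4 and Jra were at promoters, while puc and kay had 6 at promoters and 8 in introns. Only 4 of the 13 promoter summits were nearest to a TSS of a member, 1 at egr, 1 at kay and 2 at puc. Starts of non-coding genes were counted here too. The puc summit of rank 390 was nearest to puc among protein-coding genes, but nearer to lncRNA:CR44331.

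Sequence elements were searched within 75 bp either side of each summit, on both strands. None of the searched motifs contains another. The AP-1 site was in 1 of the 25 windows (4.0%), the kay summit shown above, and in 3.47% of all thresholded summit windows. Within 50 and 100 bp it was again in that 1 window, against 2.3% and 4.55% of all, so its direction turned. The cyclic AMP response element TGACGTCA was in none, against 0.121% of all. The SMAD box was in 9 windows (36.0%), 5 of puc, 3 of kay and 1 of Mkk4, against 41.2% of all. This direction turned with the window, since within 50 bp it was in 32.0%, against 29.2% of all, and within 100 bp in 60.0%, against 52.0%. The GC-rich SMAD element GGCGCC was in none, against 1.53%, and within 100 bp in 1 (4.0%), against 2.23%. The core of the boundary factor BEAF-32, CGATA, was in 8 windows (32.0%), against 17.5% of all. The GAGA repeat GAGAG and the homeodomain core TAATTA were in 4 windows each (16.0%), against 14.6% and 14.8%. Within 50 bp GAGAG was in 1 window (4.0%), against 8.92% of all, and TAATTA in 2 (8.0%), against 10.7%, and within 100 bp both were again in 16.0%, against 21.3% and 18.2%, so for both the direction turned too. GC content was 33.3% ± 5.99 over the 25 windows and 33.3% ± 7.39 over all (SD over windows).

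Genes with strongest regions most like those of Mkk4 and kay were looked up over the 3 replicates, by the distance between log10 ranks. For Mkk4 they were for, a cGMP-dependent kinase gene, at a distance of 0.062 with ranks of 71, 90 and 82, and Akt, a kinase gene of insulin signalling, at 0.0997 with ranks of 76, 94 and 87. For kay they were Adck1, at 0.0434 with ranks of 114, 150 and 109, and prage, at 0.051 with ranks of 130, 142 and 101.

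A wider list of 44 other genes of JNK signalling was described in the same way. A window summit was found for 33 of the 44 (75%), the same share as for the members, against 42.9% of all genes. In the replicates the count was 31, 33 and 30 (31.3 ± 1.53, SD, n = 3). A summit within 1 kb of a TSS was found for 20 (45.5%), against 18.9% of all genes. These genes are longer than most, with a median of 9388 bp, compared with 6401 bp for the members and 2166 bp for all protein-coding genes, so the shares are not set at equal length. By role, window summits were found for 3 of 5 receptors and adaptors, 6 of 8 upstream kinases, 4 of 5 small GTPases, 4 of 6 scaffolds, 5 of 6 inhibitors and 11 of 14 targets and partners. For none of the 6 scaffold genes did a summit lie within 1 kb of a TSS.

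The strongest of these regions belonged to several levels of the pathway. At Mtl, a Rac-type GTPase gene, the summit ranked 60 in the pooled list and 60, 75 and 49 in the replicates. It lay 240 bp upstream of Mtl but only 112 bp upstream of CG5611. At Btk, a tyrosine kinase gene, a summit 153 bp upstream of a TSS ranked 108 in the pooled list. At hid, which promotes apoptosis, a summit 277 bp upstream of a TSS ranked 231. An intronic summit of aop, an ETS-type repressor gene, ranked 351. The summit of msn, a Ste20-type kinase gene, ranked 420 but was nearest to Spn. At Tab2, which encodes an adaptor of the kinase Tak1, an intronic summit ranked 523. The summits in the windows of dsh, the Dishevelled gene, and alph, a phosphatase gene, ranked 559 and 581 and were nearest to CG1737 and CG1907. No thresholded summit was found for 11 genes, among them the scaffold gene Aplip1, the deubiquitinase gene CYLD, the relaxin-type hormone gene Ilp8 and the metalloproteinase gene Mmp1.

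**Figure D5:**
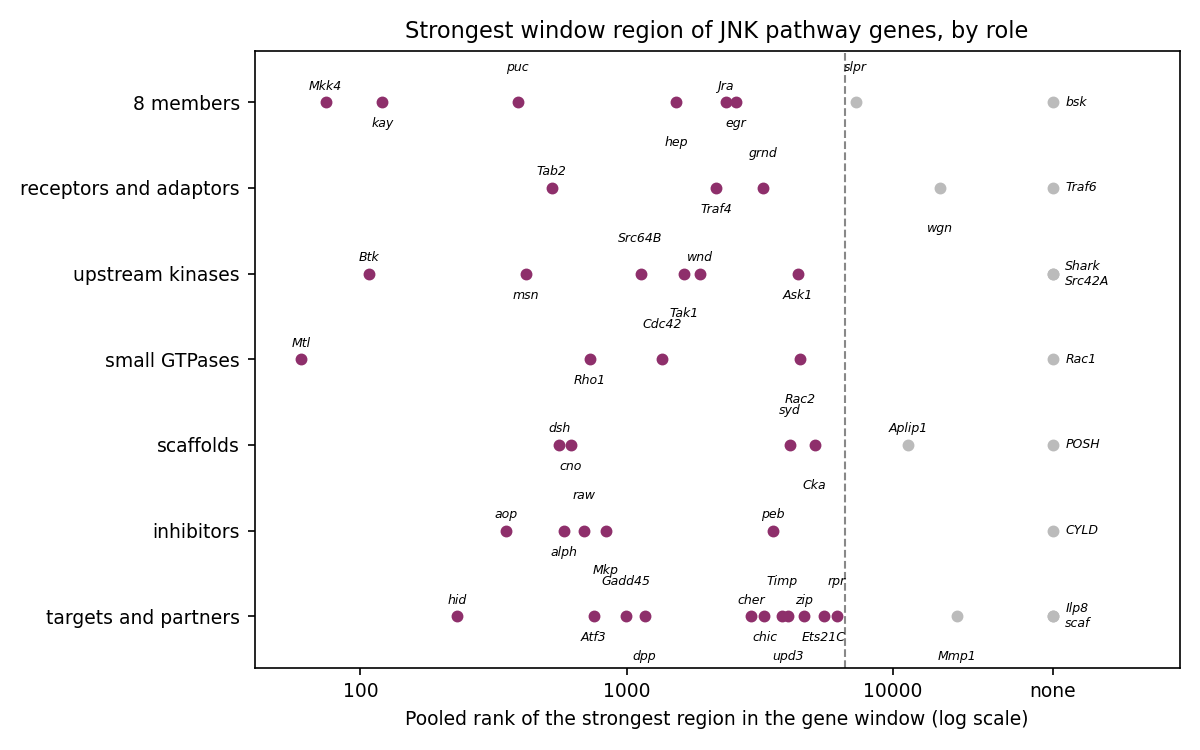
Pooled rank of the strongest region in the window (x axis, log scale, strongest to the left) for the 8 members and the 44 other JNK pathway genes by role (rows), 1 point per gene, with genes that have no region at the right edge. The dashed line is rank 6622, and grey points are genes with no thresholded summit. Each row has points on both sides of the line, and the members span the range from rank 74 at Mkk4 to no region at bsk.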

How the data were processed

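Per the file listings, the authors called regions on single and pooled replicates against 1 control alignment and made the thresholded list with the irreproducible discovery rate. Aligner, peak caller, cutoff and kind of control were not stated in the sources used here. Per the labels, chromatin was sonicated and fragments of 200 to 800 bp were taken. Each deposited line gives a score of unstated scale, used only for ranking, a −log10 q-value and a summit offset, another deposited column. The lists on dm6 were used. Read depth is unknown.

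Summits (interval start plus offset) were joined to the Ensembl release 115 annotation of BDGP6.54 on 2L, 2R, 3L, 3R, 4 and X, without the mitochondrion (22 thresholded lines), in Python 3.11.15 with pandas 2.3.3. Sequences are RefSeq's Release 6. Of 58 symbols, 2 were matched by another spelling. The joins were tested on simulated data. Identical intervals numbered 292 between replicates 1 and 2, of which 0 had equal scores, and 0 between other pairs.

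No statistical test was run, because there is 1 group. Members and lists were chosen with earlier results of these data known, so the main counts stand beside those of all protein-coding genes. Named genes are the members, genes nearer to a described summit, the 8 strongest other JNK pathway genes, the first 4 in the alphabet without a summit, and the 2 genes of most similar ranks for the 2 strongest members. The p38 pathway genes, POSH and Shark were named outside this rule, after values were seen. Alternatives were other flanks, lists, ranking columns, overlaps and motif windows, and each replicate left out. 1 item is not reported here.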

Additional observations from a re-analysis of the deposited data

How the results depend on the processing

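The count of members with a window summit, 6, was 3 with the gene body alone, with the strongest 1000 peaks, and with the nearest protein-coding TSS, an alternative chosen after seeing the data. Under the other 14 alternatives it was 4 to 6, and 6 without each replicate in turn. Regions were not called again when a replicate was left out, so the thresholded list still rested on all replicates. The count within 1 kb of a TSS, 4, was 2 with the strongest 1000 peaks, 3 to 5 under the other 13 alternatives and 3 to 4 without a replicate. A stricter list and a narrower window leave fewer summits by construction. Of all protein-coding genes, 12.5% had a summit in the body and 22.2% were nearest to one. For the strongest 1000 peaks no share of all genes is given, so those counts stand without a background. Coverage in all replicates, 21, ranged from 16 to 25, and was 22 without each replicate. Density, 15.7 per 100 kb, was 16.5, 17.9, 17.1 and 13.4 with flanks of 0, 1, 2 and 10 kb. Over the 6 members with a thresholded summit, the median of the strongest ranks, 962.5, was 1129 in replicate 2, 904 and 1077.5 in replicates 1 and 3, and 2337.5 when ranked by −log10 q-value. That column has ties, with 1325 pooled regions at its highest value of 3.42, 6 of them summits described here. With 100 bp either side the SMAD box was in 15 windows rather than 9 (60.0%, against 52.0% of all), and with 50 bp in 8 (32.0%, against 29.2%), so its direction against all summits turned with the window, as did those of GAGAG and TAATTA. The AP-1 count stayed at 1 (4.0%). Its direction turned too, against 2.3% of all within 50 bp, 3.47% within 75 bp and 4.55% within 100 bp. That of GGCGCC turned as well, from 0.0% against 1.53% within 75 bp to 4.0% against 2.23% within 100 bp. No paired analysis was possible because there is 1 group. Read counts are not known, so how depth limits weak regions such as those at slpr cannot be given.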

Other observations

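For the p38 pathway, the other stress kinase cascade of the fly, 6 genes were listed after the data had been seen. A window summit was found for 4 of the 6, against 42.9% of all protein-coding genes. An intronic summit of Mekk1, a kinase kinase gene, ranked 369. The adjacent genes p38a and p38c shared a summit 89 bp upstream of p38a with rank 1213. The kinase gene lic shares the summit of rank 1535 with hep. No region of any list lay in the window of Atf-2.

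In some windows the strongest region ranked very differently between lists. Each list was searched by itself and summits were not matched between lists, so such ranks can belong to different regions. A summit that fell past the window edge in a list was not counted there. Which of these holds was not tested. The strongest region in the window of p38b ranked 1551, 1002 and 1150 in replicates 1, 2 and 3, but 11886 in the pooled list. In the window of POSH, a scaffold gene, replicate 2 had a region of rank 169 and the other replicates and the pooled list had none. In that of Shark, a tyrosine kinase gene, replicate 1 alone had a region, of rank 806. Among the members, replicate 1 had a puc region of rank 3164 that lay 159 bp from the nearest thresholded summit, and replicate 3 had a kay region of rank 5364, 1081 bp upstream of the first TSS. These were singled out after their values were seen.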
